A study of Mus musculus with 14 samples.

Results

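The genes described here carry or restrain the adrenergic signal of the heart. They are the receptor genes Adrb1, Adra1a and Adra1b, the receptor kinase gene Grk5, the adenylyl cyclase genes Adcy5 and Adcy6, and Rgs2, which encodes a regulator of G-protein signalling. The 7 genes were chosen by name and role, with earlier results from these hearts known. Each gene was read through the probe set, a group of array probes summarised as 1 value, that was listed with a single gene symbol and had the highest mean over all arrays. On this rule 5 of the 7 genes were measured, of 19937 genes in all, and each had 1 such probe set. Adrb1 and Adra1a were not analysed here.

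Expression was measured in the left ventricle (LV) of male mice with 1 Affymetrix ST 1.0 array per sample, 14 arrays in all, 3 weeks after surgery. Aortic banding (AB) places a ligature around the ascending aorta and so loads the LV with pressure, and the Sham operation leaves out the constriction. The groups were CXCR5-/- AB (n = 4), CXCR5-/- Sham (n = 3), WT AB (n = 4) and WT Sham (n = 3). In CXCR5-/- mice the coding region of Cxcr5, the receptor for the chemokine CXCL13, is replaced by a neomycin resistance gene in every cell, so the loss is not limited to a cell type. That line was made in embryonic stem cells of another mouse strain and is kept on a C57BL/6 background, whereas the WT mice were C57BL/6 animals from a commercial breeder, and no source used here gives their age.

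Noradrenaline and adrenaline act on the heart muscle cell through beta receptors, which couple to Gs and raise cyclic AMP through adenylyl cyclase, and through alpha-1 receptors, which couple to Gq and activate phospholipase C. Receptor kinases phosphorylate the occupied receptor so that arrestins bind and signalling stops, and RGS proteins speed the shut-off of the G protein itself. In failing hearts the blunted response to catecholamines is a classical feature, and these genes are commonly read as its components.

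Values are log2 expression after robust multi-array average (RMA), so a difference of 1 is a doubling. Array medians lay between 5.19 and 5.30, and any pair of arrays correlated at 0.975 to 0.993 over all probe sets. The probe set of Cxcr5 itself read 3.85 to 4.47 on the 7 arrays labelled CXCR5-/- and 3.03 to 3.30 on the 7 labelled WT. Whether its probes lie in the replaced region is not given in the sources used here, so it does not check the label, and every genotype comparison rests on the labels. Depth is not defined for arrays, and the number of arrays limits the precision. In tissue RNA, fewer cells of a type and less RNA per cell cannot be told apart.

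After AB, 4 of the 5 measured genes were lower than after Sham in CXCR5-/- hearts and 3 of 5 in WT hearts, and none was higher in either genotype. Rgs2 and Adcy6 showed the widest differences, 1.77-fold to 2.14-fold lower in each genotype. Adra1b was also lower in both, and Adcy5 passed the threshold in CXCR5-/- hearts. Grk5 was the only one of the 5 whose mean was higher after AB, and it did not pass. The threshold was an adjusted p of 0.05 in limma over all 19937 genes. At that threshold 5.86% of all genes were lower and 8.28% higher in CXCR5-/- hearts (14.1% in either direction), and 4.22% were lower and 5.1% higher in WT hearts (9.32% in either direction). With both genotypes averaged, 4 of the 5 were lower, against 10.4% of all genes lower and 22.8% changed in either direction. AB and Sham arrays did not overlap, with AB lower, for 4 of the 5 genes in CXCR5-/- hearts, against 11.7% of all genes, and for 3 of 5 in WT hearts, against 7.74% of all genes. The median difference over all genes was -0.01 in CXCR5-/- hearts and 0.01 in WT hearts.

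**Figure D1:**
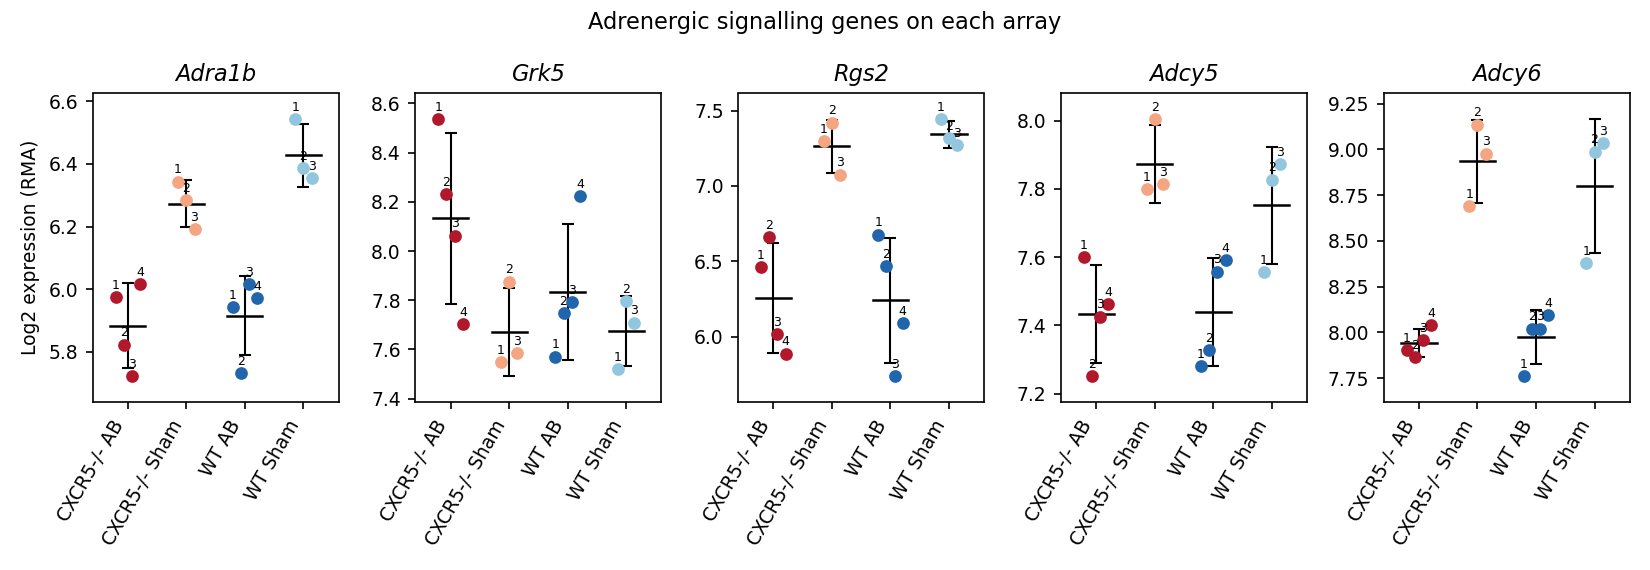
Log2 expression (RMA) of Adra1b, Grk5, Rgs2, Adcy5 and Adcy6 on each of 14 arrays. Points are arrays, labelled with their replicate number and grouped by genotype and operation, the horizontal line is the group mean and the bars are 1 SD. Each gene has its own vertical scale, which does not start at 0. All 8 AB arrays lie below all Sham arrays for Adra1b, Rgs2 and Adcy6, and the groups overlap for Grk5.

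The starts of Rgs2, Adcy5 and Adra1b, which fell after AB, are shown with that of Grk5, which did not pass. RefSeq promoter windows of GRCm38.p6, each running from 250 bases before the annotated start to 50 bases after it, were found for 4 of the 5 measured genes, Adcy6 being the exception. They lie at chr1:144004100-144004399 (minus strand) for Rgs2, chr16:35154614-35154913 (plus strand) for Adcy5, chr11:43836440-43836739 (minus strand) for Adra1b and chr19:60889499-60889798 (plus strand) for Grk5. Adra1b has a second annotated start at chr11:43901188-43901487 (minus strand). Capitals mark 2 kinds of motif on either strand, the GC box GGGCGG, which Sp1-type factors bind, and TGACG, the core of the cyclic AMP response element.
Rgs2: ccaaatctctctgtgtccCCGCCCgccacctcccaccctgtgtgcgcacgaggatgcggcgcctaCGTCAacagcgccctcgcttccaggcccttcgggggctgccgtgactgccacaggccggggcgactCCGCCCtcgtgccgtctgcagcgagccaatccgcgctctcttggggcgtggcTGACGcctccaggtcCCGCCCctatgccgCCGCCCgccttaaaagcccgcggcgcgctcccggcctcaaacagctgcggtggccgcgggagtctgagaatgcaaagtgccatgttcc
Adcy5: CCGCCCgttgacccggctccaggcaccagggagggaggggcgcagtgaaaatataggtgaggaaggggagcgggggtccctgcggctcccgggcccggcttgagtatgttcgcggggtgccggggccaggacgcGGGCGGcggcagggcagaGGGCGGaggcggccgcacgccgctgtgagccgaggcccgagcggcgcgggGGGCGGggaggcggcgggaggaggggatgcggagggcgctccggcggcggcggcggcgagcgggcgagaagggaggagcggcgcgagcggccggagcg
Adra1b: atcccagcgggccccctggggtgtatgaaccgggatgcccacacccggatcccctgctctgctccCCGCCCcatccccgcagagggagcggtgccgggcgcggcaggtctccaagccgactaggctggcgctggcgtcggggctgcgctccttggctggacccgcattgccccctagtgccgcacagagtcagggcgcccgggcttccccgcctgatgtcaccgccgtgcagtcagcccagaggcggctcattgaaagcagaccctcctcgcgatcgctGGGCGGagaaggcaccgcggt
Grk5: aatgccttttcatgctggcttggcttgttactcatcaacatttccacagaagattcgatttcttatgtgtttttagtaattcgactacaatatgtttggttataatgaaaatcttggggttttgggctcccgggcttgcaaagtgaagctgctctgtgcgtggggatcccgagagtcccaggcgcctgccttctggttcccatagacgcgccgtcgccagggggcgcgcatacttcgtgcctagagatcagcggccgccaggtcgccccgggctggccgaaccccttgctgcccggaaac
The Rgs2 window holds 2 copies of TGACG and 4 GC boxes, the Adcy5 window 4 GC boxes, and the Adra1b window 2 GC boxes. The Grk5 window and the second Adra1b window hold none of the motifs searched. Of all 32851 windows of this length, 20.8% hold TGACG, 35.7% hold GGGCGG, 13.6% hold the TATA box TATAAA and 1.79% the full element TGACGTCA, which contains TGACG on both strands. The full element and the TATA box were in none of the printed windows. GC content was 70.0% for Rgs2, 79.0% for Adcy5, 71.3% for the printed Adra1b window and 54.3% for Grk5, against a median of 52.7% over all windows. The second Adra1b window had 42.3%, below that median. A match of letters is a description and does not show binding.

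Adra1b encodes the alpha-1B receptor, which couples to Gq. In CXCR5-/- hearts its level was 5.97, 5.82, 5.72 and 6.02 after AB, against 6.34, 6.28 and 6.19 after Sham. In WT hearts it was 5.94, 5.73, 6.02 and 5.97 after AB, against 6.54, 6.39 and 6.35 after Sham. Every AB array lay below every Sham array, across both genotypes. The means were 5.88 ± 0.14 in CXCR5-/- AB hearts (SD, n = 4) and 6.27 ± 0.08 in CXCR5-/- Sham hearts (SD, n = 3), a log2 difference of -0.39 (SE 0.10, limma adjusted p = 0.0125), or 1.31-fold lower. They were 5.92 ± 0.13 in WT AB hearts (SD, n = 4) and 6.43 ± 0.10 in WT Sham hearts (SD, n = 3), a difference of -0.51 (SE 0.10, limma adjusted p = 0.0029), or 1.43-fold lower. The difference averaged over both genotypes was -0.45 (SE 0.07, limma adjusted p = 1.31e-04). The fall in CXCR5-/- hearts was -0.35 without CXCR5-/- Sham 1 (limma adjusted p = 0.0533), and the fall in WT hearts passed whichever array was left out. The other adrenergic receptor gene measured, Adra2c, which encodes an alpha-2 receptor, differed by -0.03 in CXCR5-/- hearts and by 0.02 in WT hearts, neither past the threshold, and 2 of the 9 genes of this receptor list were measured.

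Grk5 encodes a kinase that phosphorylates occupied receptors at the membrane. In CXCR5-/- hearts its level was 8.54, 8.23, 8.06 and 7.70 after AB, against 7.55, 7.88 and 7.59 after Sham. In WT hearts it was 7.57, 7.75, 7.79 and 8.22 after AB, against 7.52, 7.80 and 7.71 after Sham. CXCR5-/- AB 1 was the highest array of all, and WT AB 4 was the one high array of its group. The groups overlapped in both genotypes, because CXCR5-/- AB 4 lay within the Sham range and 3 of 4 WT AB arrays did as well. The mean difference was 0.46 in CXCR5-/- hearts (SE 0.17, 95% interval 0.10 to 0.82, limma adjusted p = 0.0837) and 0.16 in WT hearts (SE 0.17, 95% interval -0.20 to 0.52, limma adjusted p = 0.681). In CXCR5-/- hearts the call turned on single arrays. Grk5 passed there without CXCR5-/- AB 4 (0.61, limma adjusted p = 0.0155) and without WT AB 4, which enters through the shared variance (0.46, limma adjusted p = 0.0483). It also passed with array weights (0.48, limma adjusted p = 0.0153) and in significance analysis of microarrays (SAM), the test the methods name (q = 0.0381). With both genotypes averaged the difference was 0.31 (SE 0.12, limma adjusted p = 0.0753), and it passed without CXCR5-/- AB 4 (0.38, limma adjusted p = 0.0162) or without WT AB 1 (0.35, limma adjusted p = 0.0458).

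The arrestins, which bind the phosphorylated receptor, were higher after AB in both genotypes. Arrb1 differed by 0.61 in CXCR5-/- hearts (SE 0.09, limma adjusted p = 2.7e-04) and by 0.46 in WT hearts (SE 0.09, limma adjusted p = 0.0042). Arrb2 differed by 0.61 in CXCR5-/- hearts (SE 0.09, limma adjusted p = 1.6e-04) and by 0.54 in WT hearts (SE 0.09, limma adjusted p = 7.8e-04). Of the 6 receptor kinase and arrestin genes measured of 7, these 2 rose in each genotype and none fell, with a median difference of 0.36 in CXCR5-/- hearts and 0.19 in WT hearts, Grk5 included. Arrestins are also expressed in leukocytes. The mean of 6 leukocyte markers was 6.57 to 6.93 on AB arrays and 6.03 to 6.30 on Sham arrays, and the part of those cells in the arrestin values was not tested. The kinase genes Grk4 and Grk3 passed only with both genotypes averaged, Grk4 at 0.24 (limma adjusted p = 0.016) and Grk3 at -0.17 (limma adjusted p = 0.045).

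Rgs2 encodes a GTPase-activating protein with a preference for Gq. In CXCR5-/- hearts its level was 6.46, 6.66, 6.02 and 5.89 after AB, against 7.30, 7.42 and 7.07 after Sham. In WT hearts it was 6.68, 6.47, 5.74 and 6.09 after AB, against 7.44, 7.32 and 7.27 after Sham. All AB arrays lay below all Sham arrays, and within each genotype AB replicates 1 and 2 lay above replicates 3 and 4. The means were 6.26 ± 0.37 in CXCR5-/- AB hearts (SD, n = 4) and 7.26 ± 0.18 in CXCR5-/- Sham hearts (SD, n = 3), a difference of -1.01 (SE 0.20, limma adjusted p = 0.00197), or 2.01-fold lower. They were 6.24 ± 0.42 in WT AB hearts (SD, n = 4) and 7.34 ± 0.09 in WT Sham hearts (SD, n = 3), a difference of -1.10 (SE 0.20, limma adjusted p = 0.00161), or 2.14-fold lower. Averaged over both genotypes, the difference was -1.05 (SE 0.14, limma adjusted p = 2.66e-05). No array left out ended either call.

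The rest of the RGS family moved in both directions. Of 18 RGS genes measured of 19, 2 rose and 2 fell in CXCR5-/- hearts and 1 rose and 2 fell in WT hearts, with a median difference of 0.03 in CXCR5-/- hearts and -0.00 in WT hearts, Rgs2 included. Rgs19, an RGS protein that acts on Gi, was higher in both genotypes, by 0.49 in CXCR5-/- hearts (limma adjusted p = 0.0101) and by 0.50 in WT hearts (limma adjusted p = 0.0135). Rgs7, known from neurons, fell by 0.60 in CXCR5-/- hearts (limma adjusted p = 0.0107), and its difference in WT hearts was -0.33 (limma adjusted p = 0.213). Rgs18, known from platelets and white blood cells, was higher by 0.58 in CXCR5-/- hearts (limma adjusted p = 0.0111), and its difference in WT hearts was 0.30 (limma adjusted p = 0.25).

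Adcy5 and Adcy6 encode the main adenylyl cyclases of the heart muscle cell, both inhibited by calcium and by Gi. Adcy6 was 7.90, 7.87, 7.96 and 8.04 after AB in CXCR5-/- hearts, against 8.69, 9.14 and 8.98 after Sham. In WT hearts Adcy6 was 7.76, 8.02, 8.02 and 8.09 after AB, against 8.38, 8.99 and 9.03 after Sham. All AB arrays lay below all Sham arrays, the AB arrays lay close together, and Sham 1 was the lowest Sham array in each genotype. The means were 7.94 ± 0.08 in CXCR5-/- AB hearts (SD, n = 4) and 8.93 ± 0.23 in CXCR5-/- Sham hearts (SD, n = 3), a difference of -0.99 (SE 0.14, limma adjusted p = 1.40e-04), or 1.99-fold lower. The means were 7.97 ± 0.15 in WT AB hearts (SD, n = 4) and 8.80 ± 0.37 in WT Sham hearts (SD, n = 3), a difference of -0.83 (SE 0.14, limma adjusted p = 0.00122), or 1.77-fold lower. With both genotypes averaged Adcy6 had the smallest p of the 5 genes, at a difference of -0.91 (SE 0.10, limma adjusted p = 4.36e-06).

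Adcy5 followed with a smaller difference. Its level was 7.60, 7.25, 7.43 and 7.46 after AB in CXCR5-/- hearts, against 7.80, 8.00 and 7.81 after Sham. In WT hearts Adcy5 was 7.28, 7.33, 7.56 and 7.59 after AB, against 7.56, 7.83 and 7.87 after Sham. The groups were separate in CXCR5-/- hearts, whereas WT Sham 1 lay within the range of the WT AB arrays. The difference was -0.44 in CXCR5-/- hearts (SE 0.11, limma adjusted p = 0.0134), or 1.36-fold lower, and -0.31 in WT hearts (SE 0.11, 95% interval -0.55 to -0.08, limma adjusted p = 0.101). The call in CXCR5-/- hearts was lost without CXCR5-/- Sham 2 (-0.37, limma adjusted p = 0.0834), and in WT hearts Adcy5 passed without WT Sham 1 (-0.41, limma adjusted p = 0.0403) or with array weights (-0.37, limma adjusted p = 0.0141). It fell by 0.38 with both genotypes averaged (SE 0.08, limma adjusted p = 0.00207).

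The other adenylyl cyclase genes did not move as one. Leaving Adcy5 and Adcy6 aside, 8 were measured, of which 1 rose and 2 fell in CXCR5-/- hearts (median difference -0.12) and 1 rose and 1 fell in WT hearts (median difference -0.05). Adcy9, a widely expressed cyclase, fell by 0.48 in CXCR5-/- hearts (limma adjusted p = 0.0092) and fell by 0.51 in WT hearts (limma adjusted p = 0.0093). Adcy7, an isoform prominent in blood cells, was higher by 0.81 in CXCR5-/- hearts (limma adjusted p = 4.5e-04) and by 0.77 in WT hearts (limma adjusted p = 0.0012). The leukocyte marker mean was higher on every AB array than on every Sham array, and its part in the Adcy7 value was not tested. Adcy8, a cyclase that calcium stimulates, fell by 0.40 in CXCR5-/- hearts (limma adjusted p = 0.0133) and differed by -0.22 in WT hearts (limma adjusted p = 0.225).

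**Figure D2:**
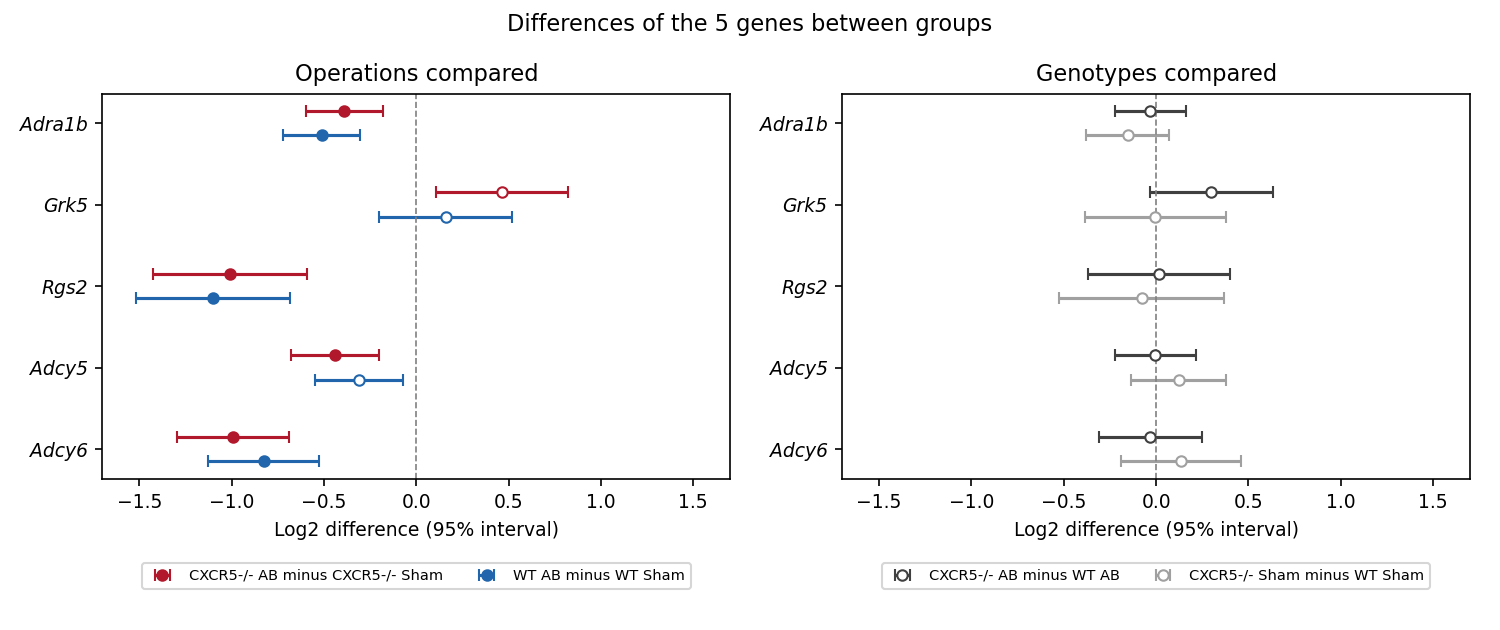
Differences in log2 expression for the 5 genes, with 95% intervals from limma. On the left, AB minus Sham in CXCR5-/- and in WT hearts, and on the right, CXCR5-/- minus WT after AB and after Sham. Filled points passed an adjusted p of 0.05 over all genes and open points did not. The filled points all lie below 0, and no genotype difference is filled.

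Downstream of cyclic AMP, the phosphodiesterases that break it down moved both ways. All 17 were measured, of which 3 rose and 5 fell in CXCR5-/- hearts (median -0.08) and 1 rose and 3 fell in WT hearts (median -0.20). Pde3a and Pde4d, which encode phosphodiesterases of the heart muscle cell, fell in both genotypes. Pde3a fell by 0.54 in CXCR5-/- hearts and fell by 0.53 in WT hearts, and Pde4d by 0.49 in CXCR5-/- hearts and by 0.44 in WT hearts. Pde4a differed by -0.63 in CXCR5-/- hearts (limma adjusted p = 0.0019) and by -0.45 in WT hearts (limma adjusted p = 0.0291). Pde8a was higher, by 0.41 in CXCR5-/- hearts (limma adjusted p = 0.0200) and by 0.38 in WT hearts (limma adjusted p = 0.0427). Of 14 genes of protein kinase A (PKA) and its anchors measured of 15, 1 rose and 2 fell in CXCR5-/- hearts (median -0.11) and 2 fell in WT hearts (median -0.08). Pkia, which encodes a PKA inhibitor, fell by 0.33 in CXCR5-/- hearts and fell by 0.44 in WT hearts. Of 9 genes of PKA substrates, 3 fell in CXCR5-/- hearts (median -0.20) and 2 in WT hearts (median -0.16), with none higher. Ryr2, which encodes the calcium release channel, fell by 0.62 in CXCR5-/- hearts and fell by 0.63 in WT hearts. Cacna1c, which encodes the L-type calcium channel, fell by 0.53 in CXCR5-/- hearts and fell by 0.52 in WT hearts. The changes of Pde3a, Pde4d, Pkia, Ryr2 and Cacna1c passed in both genotypes, with limma adjusted p values of at most 0.0447 in CXCR5-/- hearts and 0.0426 in WT hearts.

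**Figure D3:**
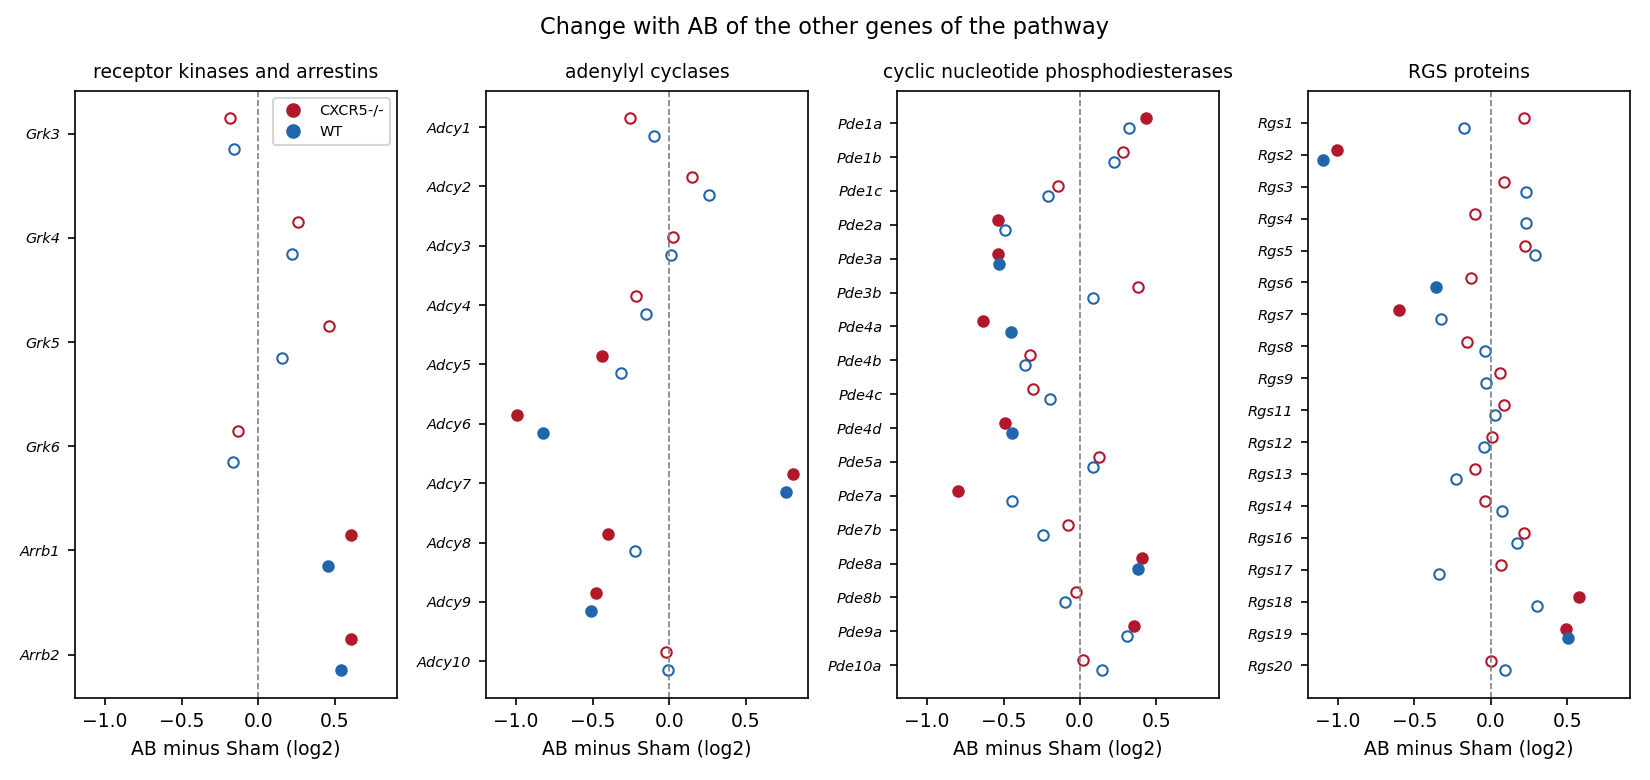
Log2 difference of AB minus Sham for every measured gene of the receptor kinase and arrestin, adenylyl cyclase, phosphodiesterase and RGS lists. CXCR5-/- points are drawn above WT points, and filled points passed an adjusted p of 0.05 in limma. Among the genes drawn, Rgs2 and Adcy6 have the lowest differences and Adcy7 the highest, in both genotypes.

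Around the receptor, the genes of G protein subunits that passed within a genotype were all higher after AB. Of 18 measured of 19, 4 rose in CXCR5-/- hearts (median 0.16) and 2 in WT hearts (median 0.12). Of all genes, 8.28% were higher in CXCR5-/- hearts and 5.1% in WT hearts. With both genotypes averaged, 5 subunit genes were higher and 1 was lower. Gnao1, which encodes an alpha subunit of the Gi class, was higher by 0.48 in CXCR5-/- hearts (limma adjusted p = 0.0023) and by 0.56 in WT hearts (limma adjusted p = 0.0011). Gnai3, of the same class, was higher by 0.58 in CXCR5-/- hearts (limma adjusted p = 0.0030) and by 0.45 in WT hearts (limma adjusted p = 0.0238). On the Gq side, where Adra1b and Rgs2 act, 14 genes were measured of 16, of which 2 rose and 1 fell in CXCR5-/- hearts (median 0.02) and 2 rose in WT hearts (median -0.01). Those that rose encode protein kinase C isoforms, Prkcb by 0.39 in CXCR5-/- hearts and by 0.33 in WT hearts, and Prkcd by 0.54 in CXCR5-/- hearts and by 0.50 in WT hearts. The gene that fell, Prkce, also encodes a protein kinase C isoform. It differed by -0.47 in CXCR5-/- hearts (limma adjusted p = 0.0192) and by -0.37 in WT hearts (limma adjusted p = 0.0818).

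Of 8 genes of catecholamine synthesis, uptake and breakdown measured of 10, 1 rose and 2 fell in CXCR5-/- hearts (median -0.13) and 1 fell in WT hearts (median 0.06). Maob, which encodes a monoamine oxidase, fell by 0.90 in CXCR5-/- hearts (limma adjusted p = 1.2e-04) and fell by 1.05 in WT hearts (limma adjusted p = 5.6e-05). Maoa, which encodes the other monoamine oxidase, was higher by 0.31 in CXCR5-/- hearts (limma adjusted p = 0.0483). Its difference in WT hearts was 0.17 (limma adjusted p = 0.378). Of 7 muscarinic and adenosine receptor genes listed, 3 were measured, the muscarinic genes Chrm1, Chrm2 and Chrm3, and no adenosine receptor gene was. Of these 3, 2 fell in CXCR5-/- hearts (median -0.37) and 1 in WT hearts (median -0.22). Chrm2, the muscarinic receptor that opposes the adrenergic signal, fell by 0.46 in CXCR5-/- hearts (limma adjusted p = 0.0325) and fell by 0.77 in WT hearts (limma adjusted p = 0.0016).

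None of the 5 genes differed in its response to AB between the genotypes at the threshold. The response of CXCR5-/- minus that of WT was 0.12 for Adra1b (SE 0.14, 95% interval -0.17 to 0.42), 0.30 for Grk5 (SE 0.24, 95% interval -0.20 to 0.81) and 0.09 for Rgs2 (SE 0.28, 95% interval -0.50 to 0.68). It was -0.13 for Adcy5 (SE 0.16, 95% interval -0.46 to 0.21) and -0.17 for Adcy6 (SE 0.20, 95% interval -0.59 to 0.26). These intervals do not show that the responses were equal. Of all 19937 genes, 0 passed for this difference in limma (0%), where 574 had an unadjusted p under 0.05, and Grk5 had the smallest unadjusted p of the 5 genes in limma, at 0.223.

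Between hearts labelled CXCR5-/- and WT after AB, none of the 5 genes passed in limma, against 0.0451% of all genes. The differences were -0.03 for Adra1b, 0.01 for Rgs2, -0.00 for Adcy5 and -0.03 for Adcy6, and the 95% intervals of these 4 lay within -0.37 to 0.40. Grk5 was 8.13 ± 0.35 in CXCR5-/- AB hearts and 7.83 ± 0.28 in WT AB hearts (SD, n = 4 each), a difference of 0.30 (SE 0.16, 95% interval -0.03 to 0.63, limma adjusted p = 0.874). With replicate number as a block the Grk5 difference stayed at 0.30 (limma adjusted p = 0.706). After Sham, none of the 5 passed, against 0.0401% of all genes. The 3 CXCR5-/- Sham arrays lay below the 3 WT Sham arrays for Adra1b, with a difference of -0.15 (SE 0.11, 95% interval -0.38 to 0.07). Groups that do not overlap in that direction were seen for 3.57% of all genes. The other 4 genes differed after Sham by -0.08 to 0.13, and with both operations averaged the 5 differences lay between -0.09 and 0.15, where 0.0953% of all genes passed. No gene of the pathway lists passed in any of these genotype comparisons.

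Other genes followed the 5 closely over the 14 arrays, and the 3 with the highest Pearson r are named for each. Adcy6 was followed by Ubr2 (r = 0.986), Slc25a12 (0.983) and Pank1 (0.983), and Adcy5 by Cog4 (0.979), Gpd1l (0.978) and Ints1 (0.974). With the group means taken out, these r were 0.883 to 0.972, over deviations pooled from all 4 groups, and no r was taken for a single group. Adcy6 varied more in the Sham groups (SD 0.23 in CXCR5-/- and 0.37 in WT) than in the AB groups (SD 0.08 in CXCR5-/- and 0.15 in WT). Adra1b was followed by Acot1 (0.951), Fam174b (0.940) and Idh2 (0.932), and Rgs2 by Lpl (0.932), Dld (0.923) and Abcd3 (0.921), with 0.604 to 0.828 once the group means were taken out. For Grk5 they were Ptpn1 (0.879), Fgf2 (0.876) and E030011O05Rik (0.874), with 0.797 to 0.856 once the group means were taken out. The arrays share a normalization and group differences, and the genes were picked as the highest of all, so these r are a description.

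Markers of some cell types moved with the operation. The mean level of 8 cardiomyocyte markers was 12.06 to 12.16 on CXCR5-/- AB arrays and 12.30 to 12.34 on CXCR5-/- Sham arrays, and 12.09 to 12.16 on WT AB arrays and 12.31 to 12.34 on WT Sham arrays. All 8 were measured, the median difference was -0.20 in CXCR5-/- hearts and -0.19 in WT hearts, and 3 fell in CXCR5-/- hearts and 1 in WT hearts. The 1 in WT hearts was Ryr2 (-0.63). There Myh6 (-0.25), Tnni3 (-0.25), Ttn (-0.21) and Pln (-0.16) were lower without passing, and Actc1 (0.01), Tnnt2 (-0.03) and Myl2 (-0.03) hardly differed. Ryr2, Tnni3 and Pln also belong to the PKA substrate list above, so the lists are not separate observations. The mean of 7 fibroblast markers was 9.40 to 9.66 on CXCR5-/- AB arrays and 8.46 to 8.75 on CXCR5-/- Sham arrays, and 9.13 to 9.69 on WT AB arrays and 8.51 to 8.74 on WT Sham arrays, with 7 higher in CXCR5-/- hearts and 4 in WT hearts. The mean of 6 leukocyte markers was 6.60 to 6.93 on CXCR5-/- AB arrays and 6.03 to 6.17 on CXCR5-/- Sham arrays, and 6.57 to 6.85 on WT AB arrays and 6.09 to 6.30 on WT Sham arrays, with 4 higher in each genotype. Of 6 endothelial markers 1 rose in each genotype, with a median difference of -0.00 in CXCR5-/- hearts and -0.12 in WT hearts. Of 5 pericyte markers, 1 rose and 1 fell in CXCR5-/- hearts and 1 fell in WT hearts, and of 4 smooth muscle markers 1 rose in CXCR5-/- hearts and none in WT hearts. No measured marker of the Schwann cell and neuron, adipocyte, liver or red blood cell lists passed in either genotype. The part of these shifts in the values of the 5 genes was not tested.

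Of the 6 Sham arrays, 3 carried more atrial transcripts than any other array. The mean of Myl7, Myl4 and Sln, genes of atrial muscle, was 8.77 on CXCR5-/- Sham 1, 8.09 on CXCR5-/- Sham 2 and 8.35 on WT Sham 1, against 6.16 to 7.67 on the AB arrays and 6.24 to 6.69 on the other Sham arrays. CXCR5-/- Sham 1 and WT Sham 1 were also the lowest Sham arrays of their genotypes for Adcy5 and Adcy6, and the highest for Adra1b. CXCR5-/- Sham 2 did not share this. It was the highest Sham array of its genotype for Adcy5 (8.00) and Adcy6 (9.14), and lay between the others for Adra1b (6.28). In a fit without these 3 arrays, chosen after the data were seen, which leaves 1 CXCR5-/- Sham and 2 WT Sham arrays, the same 3 genes were lower in WT hearts and the same 4 with both genotypes averaged. In CXCR5-/- hearts Adcy6 alone passed, and Adra1b differed by -0.31 (limma adjusted p = 0.326), Adcy5 by -0.38 (limma adjusted p = 0.243) and Rgs2 by -0.82 (limma adjusted p = 0.202). The single CXCR5-/- Sham array is there assumed to vary like the other groups. With the atrial mean as a covariate every call on the 5 genes was kept.

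**Figure D4:**
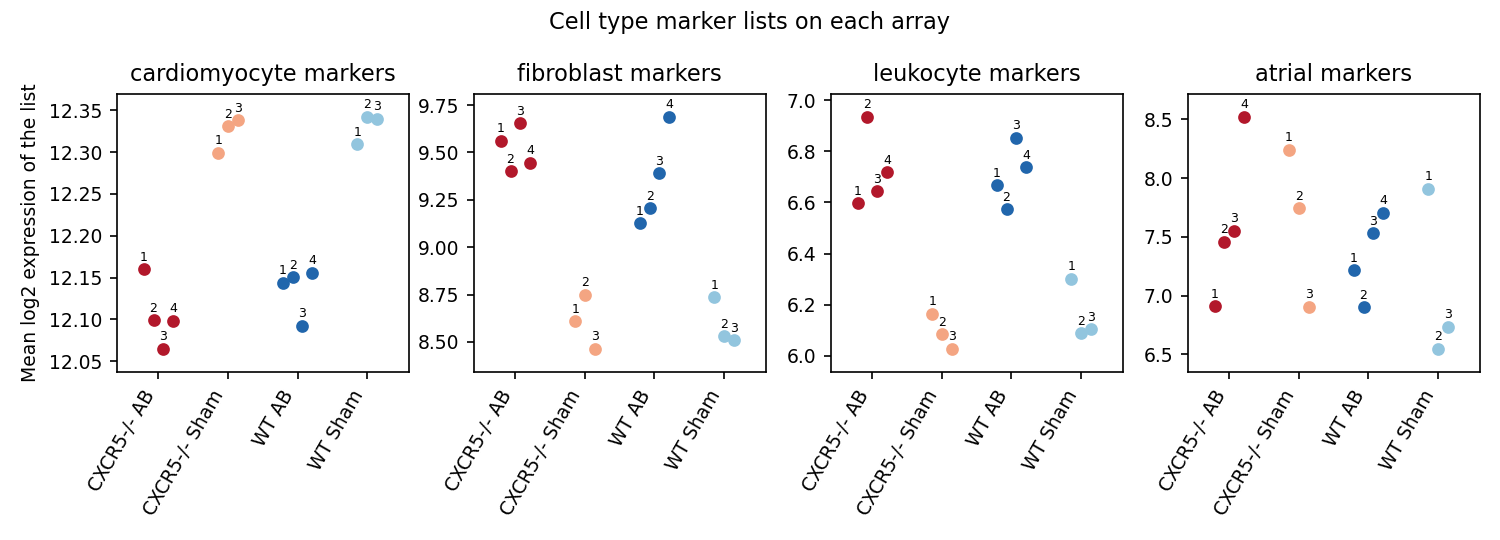
Mean log2 expression of cardiomyocyte, fibroblast, leukocyte and atrial marker lists on each of 14 arrays, labelled with replicate numbers and grouped by genotype and operation. Each panel has its own scale, which does not start at 0. Cardiomyocyte means are lower on all AB arrays than on all Sham arrays, while fibroblast and leukocyte means are higher on all AB arrays. The atrial panel also holds Nppa, which rose after AB, and Bmp10, and its order differs from that of the mean of Myl7, Myl4 and Sln.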

How the data were processed

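The authors' normalization was RMA, and the log2 values they deposited were used unchanged. Its version and background step are not given in the sources used here, nor is a genome build. Values ranged from 0.742 to 13.5 over 34760 probe sets. A single gene symbol was listed for 21640 of them (21553 found in RefSeq for GRCm38.p6), several symbols for 1321, and 11799 had no entry. For the 954 of 19937 genes with more than 1 probe set, the brightest on average was taken. Groups and replicate numbers came from the labels. The methods give the group sizes as numbers of mice, so arrays were taken as separate animals.

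One limma 3.58.1 fit in R 4.3.3 (lmFit and eBayes) held a mean for each of the 4 groups and left 10 residual degrees of freedom, with 7.13 prior degrees of freedom and a median residual SD of 0.148. Adjusted p-values are two-sided and follow Benjamini and Hochberg over all 19937 genes, with a threshold of 0.05. Dim probe sets were kept. The steps were tested on simulated data with independent noise for each gene and array. That setting lacks the correlations between arrays and between genes described here, so it does not give the rate of false calls under them. Promoter windows and motif counts came from RefSeq. For each pathway list, up to 4 further genes with the smallest p over both genotypes among those that passed could be named (the first where none passed), and for each of the 5 genes the 3 most alike by Pearson r. The members and lists were chosen with earlier results of these data known.

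Same-numbered CXCR5-/- AB and WT AB arrays deviated together from their group means in all 4 pairs (r 0.125 to 0.220 across genes), but for 3 of the 4 CXCR5-/- AB arrays the highest r was with a WT AB array of another number. The pairing rests on these correlations alone, since neither the labels nor the methods give the numbers a meaning. In the other group pairs r ranged from -0.209 to 0.451. Each group pair was searched from a single side. Replicate 1 had its highest r with replicate 1 of the other group in every pair (r 0.125 to 0.451). Replicate 2 did so in no pair, and what the replicate 1 arrays share was not tested. The alternatives tried were a mean-variance trend, robust variances, array weights, a filter at the 30th percentile, other scaling, other probe set rules, the compared groups alone, the replicate block, an atrial covariate, SAM, and leaving out each array.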

Additional observations from a re-analysis of the deposited data

How the results depend on the processing

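For AB against Sham, each of the 5 genes kept its direction under every alternative run. The number of genes lower in CXCR5-/- hearts was 4, with 3 to 4 when single arrays were left out and 1 without the 3 Sham arrays highest in atrial transcripts, a fit chosen after seeing the data, in which 542 of all genes were higher and 302 lower, beside 1650 and 1168 over all arrays. The number higher in CXCR5-/- hearts was 0, and 1 (Grk5) with array weights and with SAM, with 0 to 1 when single arrays were left out. In WT hearts leaving out single arrays gave 3 to 4 lower. With both genotypes averaged it gave 4 lower and 0 to 1 higher. The replicate block changed no call on the 5 genes, and the count of all genes that passed between genotypes after AB went up with it to 11 higher and 10 lower, beside 5 higher and 4 lower without it. It gave 1282 lower in WT hearts, beside 842. With array weights 2632 of all genes were higher and 2138 lower in CXCR5-/- hearts, and 1775 higher and 1633 lower in WT hearts, beside 1016 and 842 there. Between genotypes after Sham, array weights gave 15 higher and 24 lower, beside 4 and 4, and SAM gave 0 after AB and 0 after Sham.

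Differences near 0 changed sign, none of them past the threshold, and the cause was not tested. For CXCR5-/- against WT after AB, Adcy5 was 0.0118 and Rgs2 -0.0161 with array weights, and Adcy5 was 9.8e-04 with median centring. After Sham, Grk5 was 0.0075 with quantile normalization and 0.0576 with the atrial covariate, under which Rgs2 over both operations was 4.2e-04. Without the 3 Sham arrays the difference of responses was 0.0305 for Adcy5 and 0.0012 for Adcy6, CXCR5-/- against WT after Sham was -0.0353 for Adcy5 and -0.0336 for Adcy6, and over both operations it was -0.0201 for Adcy5 and -0.0329 for Adcy6. With single arrays left out, the difference of responses was -0.289 to 0.0439 for Adcy6 and -0.0751 to 0.238 for Rgs2. CXCR5-/- against WT after AB was -0.093 to 0.0221 for Adra1b, -0.0597 to 0.0564 for Adcy5, -0.104 to 0.0074 for Adcy6 and -0.154 to 0.159 for Rgs2. After Sham it was -0.107 to 0.0559 for Grk5, -0.0763 to 0.256 for Adcy6 and -0.157 to 0.0163 for Rgs2, and over both operations -0.0543 to 0.112 for Adcy6 and -0.116 to 0.0402 for Rgs2. The 3 or 4 arrays in a group limit the precision.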
